A study of Mus musculus with 12 samples.

Results

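Described here are 35 genes that mark macrophages and lymphocytes, followed in the quadriceps muscle of trained and sedentary mice. They were taken by name: a gene probe belonged to the set when the gene name in its row of the scanner file was one of the 35 names. The names were chosen with earlier results of these data known. Counts set beside those of all genes therefore describe the set and do not test it. All 35 genes were found, on 57 of the 41174 gene probes of the array, and 15 of them had more than 1 probe. To be tested, a gene needed a signal well above background in 6 or more of the 12 mice, and 30 of the 35 genes met this, among 16528 genes and unnamed probes that were tested in all.

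All 12 mice were males of the inbred strain C57BL/6J, aged 13 weeks. The exercised group held 6 mice that had run on a treadmill for 4 weeks and whose muscle was collected 3 hours after their last bout, and the sedentary group held 6 mice without training. Each array was hybridised with Cy3-labelled RNA of a single mouse, and the titles name every mouse as an animal of its own. Mice are written here by the set and animal number of their titles, so that s2m3 is animal 3 of set 2. Numbers are shared between the groups without marking a known pair, and the meaning of the sets is not stated. The comparison asks how these transcripts differ between trained muscle after a last run and untrained muscle, and the last bout and the weeks of training cannot be told apart.

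Macrophages reside in the connective tissue between muscle fibres, where they clear debris and depend on signalling through the colony-stimulating factor 1 receptor. Monocytes enter a tissue from the blood along chemokines such as CCL2, which is read by the receptor CCR2, and can become macrophages there. T cells recognise antigen through a receptor that signals inside the cell through the CD3 chains and the zeta chain encoded by Cd247, while antigen is shown to them on MHC class II molecules.

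The differences described below rest on a few probes of the array, and the first 30 of their 60 bases are shown because 2 probes of Cd247 gave unlike values. The array files place them on mouse genome build mm9. Exon or UTR annotation of this build was not analysed here. The probe that represents Cd247 lies at chr1:167791855-167791914 on the plus strand, and the second Cd247 probe covers a span of 1019 bases at chr1:167786567-167787585, which is longer than its own 60 bases. The Ptger4 probe lies at chr15:5184419-5184478 on the minus strand and the Ccr2 probe at chr9:124022948-124023007 on the plus strand.
Cd247, A_52_P75298: aacggtaagatgtcttaccttcatgaagac
Cd247, A_52_P173555: gaccccaaccagctctacaatgagctcaat
Ptger4, A_51_P207988: aagcacattggctgtcattctgatgtgact
Ccr2, A_51_P245989: gaagcagggacagaattcttgctttgaaaa

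The arrays were alike between the groups in overall brightness. The 75th percentile of the gene probe signal was 206 ± 20.1 intensity units in the exercised group (SD, n = 6) and 190 ± 24.9 in the sedentary group (two-sided exact permutation test over 924 assignments, p = 0.229), and 23192 ± 957 against 23045 ± 1187 probes were well above background (p = 0.805). The number of arrays limits the precision of every value. Levels are given below as a percentage of this 75th percentile of the same array. Levels of different genes are not compared, because each probe binds its target with its own strength. The arrays lay on 3 slides. Slide 1 held 1 exercised and 3 sedentary mice, slide 2 held 3 exercised mice and 1 sedentary mouse, and slide 3 held 2 of each.

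Several arrays stood apart in immune genes. Exercised s2m3 had the highest signal of all 12 arrays in 10 of the 13 neutrophil markers with a probe, and 12 of the 13 were well above background on it. Camp, which encodes an antimicrobial peptide of neutrophil granules, was at 286% there and at 0.899% to 1.91% on the other 11 arrays. Mpo, which encodes myeloperoxidase, was at 208% there and at 3.58% to 7.94% elsewhere. Sedentary s1m1 had the highest value in 19 of the 30 genes tested, against 10.1% of all genes, and sedentary s2m4 had the lowest in 15 of the 30, against 6.26% of all genes. Values without these arrays are given beside several of the results below.

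Of the 30 genes tested, 2 were lower in exercised muscle and 0 were higher at an adjusted p below 0.05 (limma with Benjamini-Hochberg adjustment over all 16528). They were Cd247, the T-cell receptor zeta chain gene, and Ptger4, which encodes the EP4 receptor for prostaglandin E2. Their probes were well above background on 6 of 6 sedentary arrays, but on only 3 and 2 of 6 exercised arrays. Both thus met the filter on dim probes mainly through the sedentary group. Without that filter Ptger4 did not pass. Among all genes tested, 3.64% passed in either direction, 1.84% being lower and 1.8% higher. At an unadjusted p below 0.05, 6 of the 30 were lower and 0 higher, against 9.82% and 6.4% of all genes. The median difference of the 30, exercised minus sedentary on the log2 scale, was -0.12, with 10 above 0 and 20 below, and the median of all genes was -0.03. Of all 16528, 6959 lay above 0 and 9569 below. Exercised and sedentary values were fully separate in 0 of the 30 genes and in 3.01% of all genes. With slide as a block, 0 of the 30 passed (3 at an unadjusted p below 0.05), where 2.11% of all genes did.

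**Figure D1:**
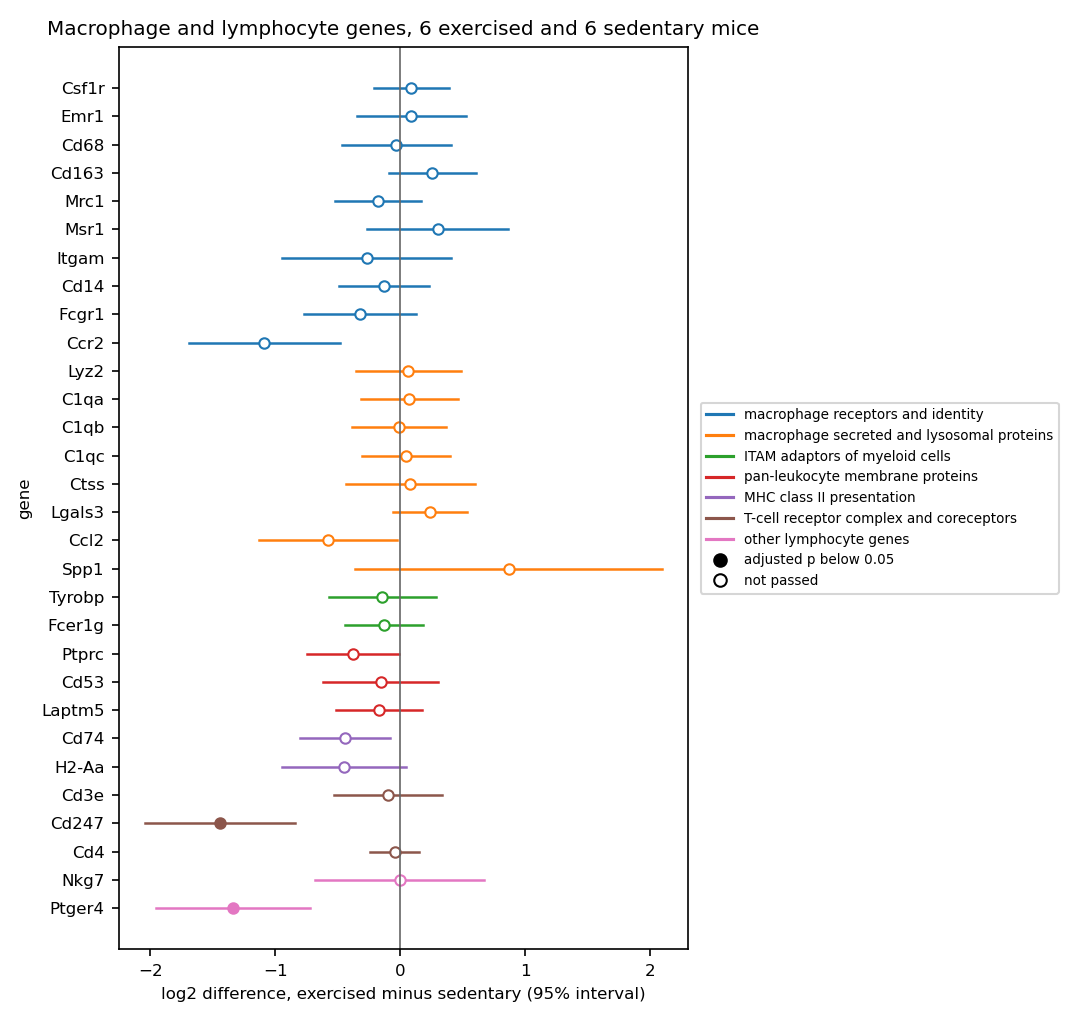
Log2 difference, exercised minus sedentary, of the 30 genes tested, ordered and coloured by role, with the 95% interval of the limma fit over 6 and 6 arrays. Filled points mark the 2 genes past an adjusted p of 0.05, Cd247 at -1.44 and Ptger4 at -1.34, both left of 0, and open points the other 28. Cd247 and Ptger4 met the filter on dim probes mainly through the sedentary group.

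Of the 20 genes in this class, 18 were well above background on all 12 arrays, and Msr1 and Itgam were so on 6 of 12 each. Of these, 0 passed the adjusted threshold in limma (2 did at an unadjusted p below 0.05, Ccr2 and Ccl2, both lower). Differences were above 0 in 10 and below 0 in 10, with a median of 0.02. Within slides 1, 2 and 3 this median was -0.25, 0.34 and -0.07, so its sign was not the same on every slide. A lower level of such a gene can come from fewer cells of a type or from less RNA in each cell, and in whole muscle these cannot be told apart.

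Among the receptors that define the macrophage, Csf1r, the colony-stimulating factor 1 receptor, ran from 152% over a median of 194% to 228% in exercised mice and from 143% over 173% to 263% in sedentary mice. The highest and the lowest of these 12 values were both sedentary, and the groups overlapped throughout. The difference was 0.09 (95% interval -0.21 to 0.39, adjusted p = 0.824). Emr1, the gene of the F4/80 antigen now named Adgre1, differed by 0.09 (-0.35 to 0.52) and the lysosomal glycoprotein gene Cd68 by -0.03 (-0.47 to 0.41). These intervals reach up to 0.52 on the log2 scale, so changes smaller than that were not resolved.

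The scavenger receptor genes of resident macrophages did not pass the test. Cd163, which encodes the receptor for haptoglobin and haemoglobin complexes, ran from 152% over 197% to 257% in exercised and from 112% over 166% to 234% in sedentary mice, a difference of 0.26 (-0.09 to 0.60, adjusted p = 0.489) that was 0.15 without sedentary s2m4. The mannose receptor gene Mrc1 went the other way, by -0.18 (-0.53 to 0.16), with 94.6% to 124% in exercised and 70.0% to 146% in sedentary mice. Msr1, the class A scavenger receptor gene, was near background at 3.66% to 6.87% in exercised and 2.93% to 8.73% in sedentary mice. Its difference of 0.30 (-0.27 to 0.86, adjusted p = 0.646) changed sign to -0.10 and -0.14 under the normexp background corrections, and was 0.51 without sedentary s1m1 and 0.20 without sedentary s2m4. Neither direction passed in any of the settings run.

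Of the remaining surface receptors, Fcgr1, a high-affinity immunoglobulin receptor gene, differed by -0.32 (-0.77 to 0.12), Itgam, the CD11b integrin gene, by -0.27 (-0.95 to 0.41) and Cd14, the lipopolysaccharide co-receptor gene, by -0.13 (-0.49 to 0.23). None of these passed. Tyrobp and Fcer1g, adaptors that pass on signals of activating receptors in myeloid cells, differed by -0.14 (-0.57 to 0.28) and -0.13 (-0.45 to 0.18).

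Ccr2, the receptor gene of inflammatory monocytes, had the lowest p of the macrophage class. Exercised mice had 9.30%, 9.58%, 12.8%, 15.5%, 15.7% and 16.6%, and sedentary mice had 13.7%, 19.9%, 27.2%, 29.9%, 40.5% and 47.4%. The groups overlapped only through sedentary s2m4 at 13.7%, below 3 of the exercised values. Exercised muscle was 2.13-fold lower (95% interval 1.40 to 3.24; log2 difference -1.09), and the adjusted p of 0.0523 missed the threshold. Without sedentary s2m4 the adjusted p was 0.0157, without exercised s2m3 it was 0.106, and with slide as a block it was 0.132. The difference was of like size on the 3 slides, at -0.93, -1.15 and -1.09. The second Ccr2 probe was not well above background in any mouse (0 of 12), so no fold is given for it.

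Ccl2, the gene of the chemokine that CCR2 reads, ran from 23.3% over 30.1% to 35.9% in exercised mice and from 25.8% over 42.0% to 89.8% in sedentary mice. The difference was -0.58 (-1.13 to -0.03) with an adjusted p of 0.276. Exercised values lay in a narrow band at the low end, with exercised s1m1 at 23.3% below every sedentary value, and sedentary s2m2 and s1m1 were the highest at 89.8% and 61.2%.

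**Figure D2:**
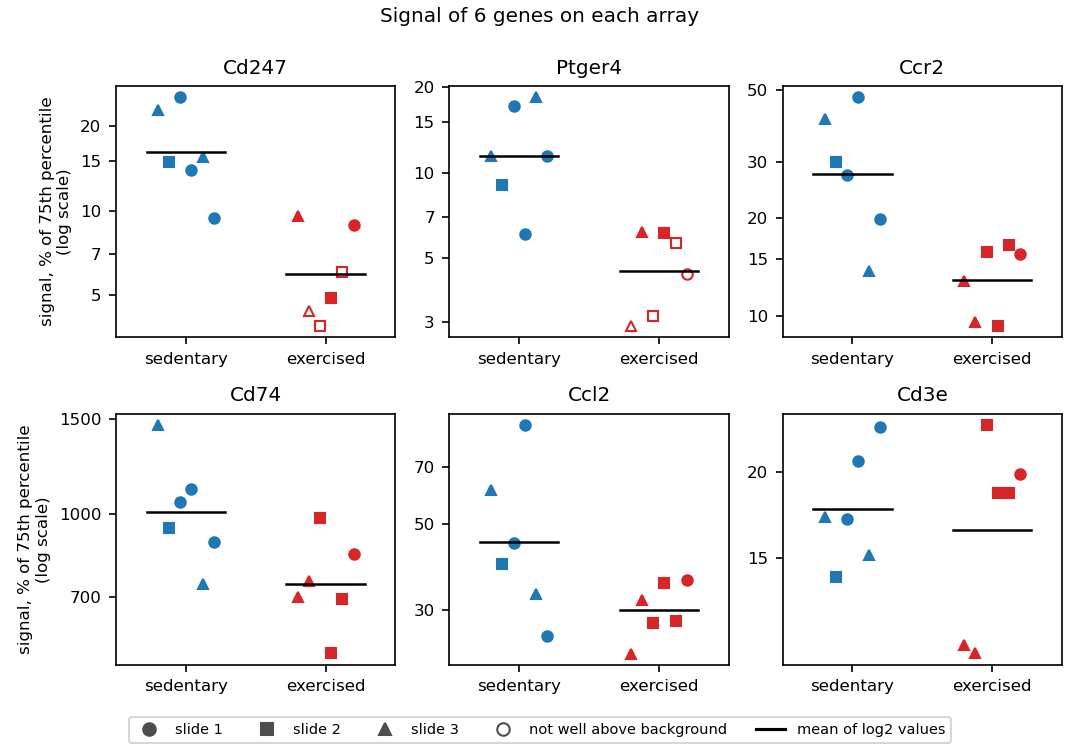
Signal of Cd247, Ptger4, Ccr2, Cd74, Ccl2 and Cd3e on each of the 12 arrays, as a percentage of the array's 75th percentile on a log axis. Point shapes give the slide, open points were not well above background, and bars are means of the log2 values over 6 mice. In the top row most exercised points lie below the sedentary ones, with Ccr2 at 9.30% to 16.6% against 13.7% to 47.4%, while the groups overlap in Cd3e.

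The secreted and lysosomal proteins of macrophages showed no call in either direction. C1qa, C1qb and C1qc, the complement C1q chains whose probes lie side by side on chromosome 4 (mm9), differed by 0.07 (-0.32 to 0.46), -0.01 (-0.39 to 0.36) and 0.04 (-0.31 to 0.40). C1qb ran from 149% over 171% to 188% in exercised and from 114% over 176% to 271% in sedentary mice, so that the exercised values lay inside the sedentary range. Lyz2, the lysozyme gene, differed by 0.06 (-0.36 to 0.49) and Ctss, the gene of the lysosomal protease cathepsin S, by 0.08 (-0.44 to 0.60). Lgals3, the galectin-3 gene, ran from 130% over 140% to 178% in exercised and from 91.6% over 124% to 159% in sedentary mice, a difference of 0.24 (-0.06 to 0.53, adjusted p = 0.437) that was 0.16 without sedentary s1m5.

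Spp1, which encodes the secreted phosphoprotein osteopontin, had the largest positive difference of the 30 genes at 0.87 (-0.36 to 2.10, adjusted p = 0.513), and it rested on 1 mouse. Exercised mice had 35.5%, 40.2%, 53.0%, 57.5%, 131% and 592%, and sedentary mice had 36.6% to 56.0% with a median of 46.1%. Exercised s2m3 gave the 592% and exercised s2m4 the 131%, while the other 4 exercised values overlapped the sedentary range. Without exercised s2m3 the difference was 0.30 with an adjusted p of 0.688. On the same array S100a9, a calcium-binding protein gene of neutrophils and monocytes, was at 5032%, against 6.90% to 40.6% in the other exercised and 26.8% to 668% in sedentary mice. The 2 neutrophil genes bright enough to test, S100a9 and Mmp9, summed to 20.3% to 5059% in exercised and 48.0% to 682% in sedentary mice. The part of these cells in the Spp1 value was not tested.

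**Figure D3:**
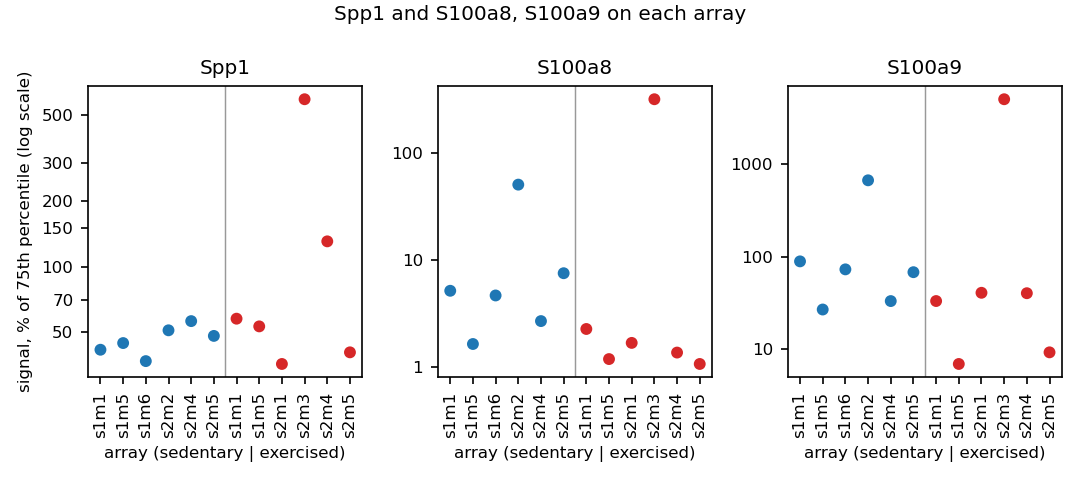
Signal of Spp1, S100a8 and S100a9 on each array, as a percentage of the array's 75th percentile on log axes, with 6 sedentary mice in blue and 6 exercised mice in red. Exercised s2m3 is highest in all 3 panels, at 592%, 320% and 5032%, and sedentary s2m2 is second in S100a8 and S100a9 but not in Spp1.

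Many of the genes were high together in one mouse and low together in another, and the sedentary group was the wider. Its SD was larger than that of the exercised group in 24 of the 30 genes (80%) and in 18 of the 20 macrophage genes (90%), against 44.2% of all genes. The median SD of the macrophage genes on the log2 scale was 0.23 in exercised and 0.45 in sedentary mice. Sedentary s1m1 was above the gene's mean of 12 arrays in 18 of 20 macrophage genes, with a median deviation of 0.70, and sedentary s2m4 in 0 of 20, with a median of -0.54. Both lay on slide 3. Without these 2 mice the sedentary SD was the larger in 14 of 30 genes, against 6123 of all 16528, and its median over the macrophage genes was 0.23. The 2 mice were chosen by these same values and no exercised mouse was left out, so the fall in SD follows from the choice. Among the exercised mice, s2m4 was the one above the mean in most macrophage genes, in 17 of 20.

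**Figure D4:**
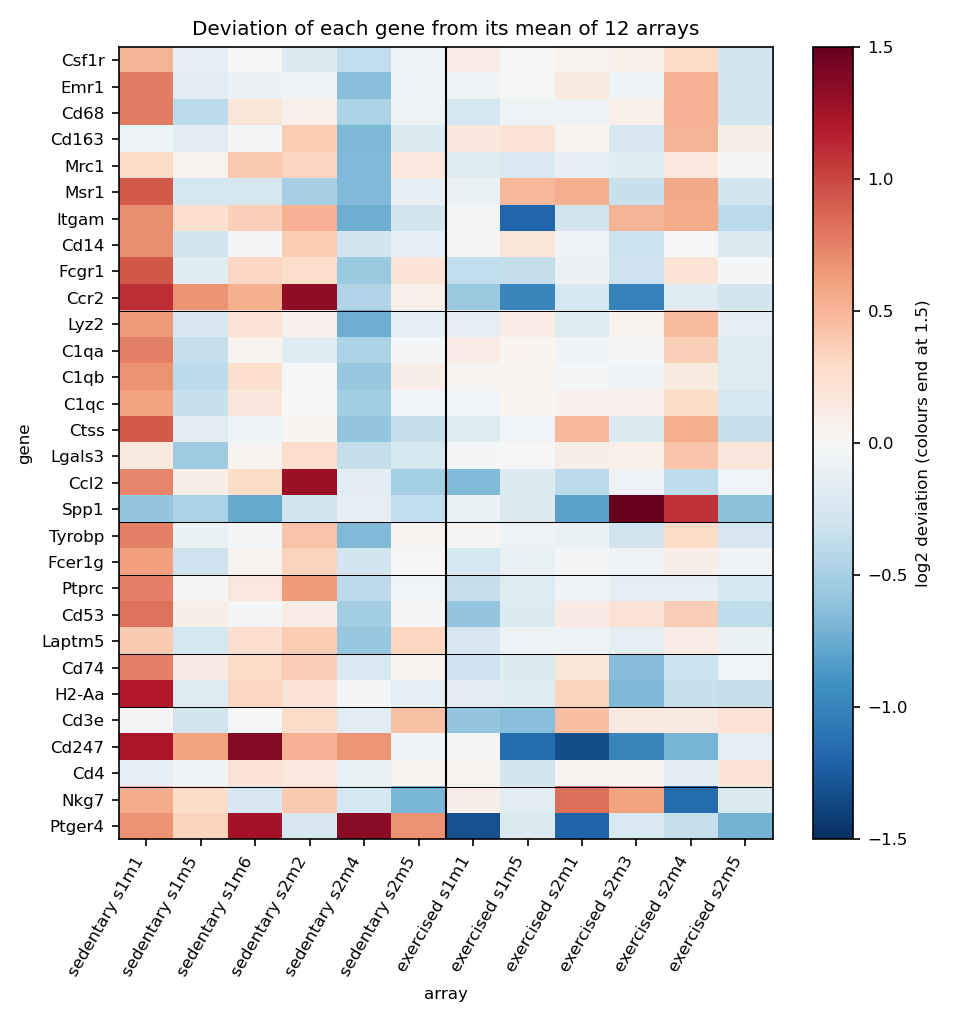
Deviation of each of the 30 genes from its mean over the 12 arrays, on the log2 scale, with genes in rows by role, sedentary mice left and exercised mice right of the black line. The column of sedentary s1m1 is red in most rows and that of sedentary s2m4 blue in most rows, with median deviations of 0.70 and -0.47 over the 30 genes.

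The stretch before the transcription start was searched for short motifs in the RefSeq sequences of build GRCm38.p6. The search took every one of the 35 genes with a promoter there, whether or not it was tested or was high or low together with others. A promoter of 300 bases, 250 before the start and 50 after it, was matched for 26 of the 35 genes and gave 28 promoters. PU.1, the ETS-family factor of the myeloid lineage, is known to bind purine-rich sites around GAGGAA. This motif, read on either strand, was in 53.6% of the 28 promoters and in 28.3% of 32851 promoters of the same length. The longer GAGGAAGT was in 14.3% against 3.2%, in C1qc, Ctss, Spp1 and Cd53, and GGAAGT was in 60.7% against 23.8%, and these 3 motifs overlap each other. By gene, GAGGAA was in 15 of the 26 genes with a promoter, 8 of them among the 13 macrophage genes. Of the other motifs searched on both strands, TGTGGT was in 25% against 16.8%, TGTTCT in 39.3% against 19%, CCAAT in 39.3% against 37.4%, TATAAA in 14.3% against 13.6% and TGACGTCA in 3.57% against 1.79%. These matches describe letters in a window and are not binding sites. The 250 bases before the start are shown for C1qb and C1qc, neighbours that were both highest in sedentary s1m1 and lowest in sedentary s2m4, and for the 2 genes past the threshold. Capitals mark GAGGAA or its reverse complement, and a stretch without capitals has neither.
C1qb, chr4:136886201-136886450, minus strand: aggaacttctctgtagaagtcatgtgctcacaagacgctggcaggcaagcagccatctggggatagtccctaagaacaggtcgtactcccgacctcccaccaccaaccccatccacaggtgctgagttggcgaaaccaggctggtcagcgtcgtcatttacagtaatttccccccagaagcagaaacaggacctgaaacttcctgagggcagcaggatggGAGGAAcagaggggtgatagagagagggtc
C1qc, chr4:136892915-136893164, minus strand: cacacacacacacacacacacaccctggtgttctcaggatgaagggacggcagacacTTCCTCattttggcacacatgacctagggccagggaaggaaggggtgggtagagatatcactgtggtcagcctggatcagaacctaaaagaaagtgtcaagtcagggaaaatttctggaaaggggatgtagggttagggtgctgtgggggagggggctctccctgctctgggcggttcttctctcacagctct
Cd247, chr1:165788431-165788680, plus strand: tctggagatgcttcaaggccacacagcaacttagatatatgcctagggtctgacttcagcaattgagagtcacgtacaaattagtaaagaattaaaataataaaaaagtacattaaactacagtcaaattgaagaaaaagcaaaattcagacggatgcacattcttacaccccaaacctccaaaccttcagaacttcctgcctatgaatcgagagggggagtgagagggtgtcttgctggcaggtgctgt
Ptger4, chr15:5244188-5244437, minus strand: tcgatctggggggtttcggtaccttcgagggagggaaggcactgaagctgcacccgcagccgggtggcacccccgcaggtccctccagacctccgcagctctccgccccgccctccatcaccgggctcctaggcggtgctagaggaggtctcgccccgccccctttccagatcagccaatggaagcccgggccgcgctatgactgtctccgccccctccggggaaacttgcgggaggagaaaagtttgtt

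The genes shared by most leukocytes were all on the lower side without passing. Ptprc, the gene of the CD45 phosphatase on all white blood cells, ran from 38.2% over 43.3% to 46.9% in exercised and from 36.9% over 51.7% to 82.3% in sedentary mice. Exercised mice lay close together, and 5 of the 6 sedentary mice lay above all of them. The difference was -0.38 (-0.75 to -0.01) with an adjusted p of 0.291. Cd53, a tetraspanin gene, differed by -0.16 (-0.62 to 0.31) and Laptm5, a lysosomal membrane protein gene of blood cells, by -0.17 (-0.52 to 0.18).

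Both MHC class II genes were below 0. Cd74, the invariant chain that guides class II molecules through the cell, ran from 550% over 726% to 983% in exercised and from 739% over 996% to 1460% in sedentary mice. The groups overlapped from 739% to 983%, and the difference was -0.44 (-0.80 to -0.08, adjusted p = 0.187). H2-Aa, a class II alpha chain gene, differed by -0.45 (-0.95 to 0.04, adjusted p = 0.361), and sedentary s1m1 was the highest at 319%. Without sedentary s1m1 the H2-Aa difference was -0.26. The same direction was seen in all 4 other class II genes bright enough to test. H2-DMb1, part of the peptide exchanger, differed by -0.54 (-0.89 to -0.20, adjusted p = 0.0827), the beta chain genes H2-Eb1 and H2-Ab1 by -0.52 and -0.43, and H2-DMa by -0.29. None of these passed. An unadjusted p below 0.05 was found in 3 of the 4, where 9.82% of all genes were lower at that level. Of all 16528 genes, 9569 lay below 0. The summed level of the 4 was 764% to 1393% in exercised and 1080% to 1953% in sedentary mice.

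Lymphocyte genes were dim. Of the T-cell receptor genes, Cd3d was well above background on 1 exercised and 4 sedentary arrays, Cd3g on 1 and 1, and no probe of Cd8a on more than 1 of 12, so these were not tested. Cd79a, the signalling chain of the B-cell receptor, was well above background on 1 array, and Il7r, the interleukin 7 receptor gene of lymphocytes, on 0. Cd3d ran from 1.43% over 1.85% to 6.12% in exercised mice and from 2.80% over 4.91% to 44.6% in sedentary mice, with the 44.6% in sedentary s1m5.

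Cd247 was the T-cell gene that passed. Exercised mice had 3.90%, 4.41%, 4.91%, 6.06%, 8.89% and 9.61%, and sedentary mice had 9.40%, 14.0%, 14.9%, 15.6%, 22.9% and 25.3%. The groups overlapped through a single pair, exercised s1m1 at 9.61% and sedentary s2m5 at 9.40%. The gene was 2.72-fold lower in exercised muscle (95% interval 1.80 to 4.12; log2 difference -1.44, adjusted p = 0.0126), though its probe was well above background on 3 of 6 exercised and 6 of 6 sedentary arrays, so the fold is imprecise. Cd247 thus met the filter on dim probes mainly through the sedentary group, and without the filter the adjusted p was 0.0337. Within slides 1, 2 and 3 the difference was -0.75, -1.61 and -1.54, and with slide as a block the adjusted p was 0.0553.

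The second Cd247 probe was dimmer, well above background on 1 exercised and 5 sedentary arrays, and did not pass (difference -0.87, adjusted p = 0.595 with every probe as a feature of its own). Exercised s2m4 was at 39.7% on it, against 1.52% to 3.52% in the other 5 exercised mice and 4.35% to 11.1% in sedentary mice. On the first probe the same mouse was at 6.06%, in the middle of its group. The third Cd247 probe was well above background on 0 arrays. Csf1r, H2-Aa, Lyz2 and Laptm5 also had a second probe bright enough to test, and it gave 0.12, -0.40, 0.23 and -0.21, each on the same side of 0 as the first.

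Cd3e and Cd4, which also mark T cells, showed no such difference. Cd3e, a CD3 chain gene, ran from 10.9% over 18.6% to 23.3% in exercised and from 14.1% over 17.1% to 23.2% in sedentary mice, a difference of -0.10 (-0.53 to 0.33, adjusted p = 0.864). Cd4, the coreceptor gene of helper T cells, which some myeloid cells also express, differed by -0.04 (-0.24 to 0.15). The interval of Cd247 lies below both of these, but the difference between the genes was not tested. Nkg7, a granule protein gene of natural killer and cytotoxic T cells, differed by -0.01 (-0.68 to 0.67).

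Ptger4 was lower in exercised muscle by a like amount. Exercised mice had 2.90%, 3.13%, 4.40%, 5.66%, 6.14% and 6.18%, and sedentary mice had 6.09%, 9.05%, 11.5%, 11.5%, 17.1% and 18.3%. The groups overlapped only through sedentary s2m2 at 6.09%, just under the 2 highest exercised values. The difference was 2.53-fold (1.66 to 3.88; log2 -1.34, adjusted p = 0.0208), with the probe well above background on 2 of 6 exercised and 6 of 6 sedentary arrays. Ptger4 thus met the filter on dim probes through the sedentary group, its fold is imprecise, and without the filter the adjusted p was 0.0548, so the call was lost. Within slides it was -1.27, -0.92 and -1.77, and with slide as a block the adjusted p was 0.0691. Of 8 other prostanoid receptor and synthase genes bright enough to test, Ptgir, the prostacyclin receptor gene, passed and was 1.37-fold lower (1.18 to 1.58, adjusted p = 0.0217; 0.0730 with slide as a block). Ptger3, the EP3 receptor gene, differed by 0.62 (-0.06 to 1.31) and did not pass, and Ptgs2, the inducible cyclooxygenase gene, was well above background on 0 arrays.

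Leaving out both sedentary s1m1 and sedentary s2m4, chosen after their values were seen, left differences of -1.33 for Cd247, -1.17 for Ptger4 and -1.20 for Ccr2. The adjusted p was then 0.0696, 0.0954 and 0.0435, so that Ccr2 passed and the other two did not. Without exercised s2m3 alone, Cd247 and Ptger4 had adjusted p of 0.0300 and 0.0270.

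Further genes linked to the same cells were drawn from wider lists. Of 45 other macrophage and monocyte genes tested, 2 were higher, 0 lower and 43 did not pass, with a median of -0.10. Over all genes, 1.8% were higher and 1.84% lower. Mertk, a receptor kinase that macrophages use to take up dying cells, ran from 36.7% to 88.2% in exercised and from 24.5% to 28.7% in sedentary mice, with no overlap. It was 1.88-fold higher (1.46 to 2.43, adjusted p = 0.0104; 0.0413 with slide as a block). Lyve1, a hyaluronan receptor of lymphatic endothelium and of some resident macrophages, was 1.76-fold higher (1.34 to 2.31, adjusted p = 0.0276; 0.101 with the block). Its values were 151% to 235% in exercised and 66.1% to 158% in sedentary mice.

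Of 17 other T-cell and natural killer cell genes tested out of 36, 2 were lower and 0 higher, with a median of -0.23 and 15 of 17 below 0. Over all genes tested, 1.84% were called lower, and 9569 of 16528 lay below 0. The 2 lower ones belong to the GIMAP family of GTP-binding proteins, and which cells of the muscle carry them was not tested. Gimap6 ran from 105% to 136% in exercised and from 153% to 203% in sedentary mice, 1.37-fold lower (1.21 to 1.55, adjusted p = 0.0104; 0.0449 with slide as a block). Gimap4 ran from 6.28% to 9.27% and from 8.96% to 16.5%, 1.55-fold lower (1.25 to 1.93, adjusted p = 0.0319; 0.0230 with the block). In the 36 genes, 10 were above background on 0 arrays, among them the T-cell genes Foxp3, Ccr7 and Txk. Of 16 other B-cell genes 5 could be tested and 0 passed in limma, none of them even unadjusted (0 below 0.05), with Cd37 having the smallest p at a difference of -0.29 (-0.76 to 0.18).

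Of 18 cytokine and chemokine genes linked to macrophages and tested out of 28, 1 was lower, 0 were higher and 15 lay below 0. The list includes factors that act on macrophages, and which cells of the muscle express its genes was not tested. Among all 16528 genes, 9569 lay below 0 and 1.84% were called lower. Csf1, the gene of the growth factor on which macrophages depend, ran from 120% over 134% to 154% in exercised and from 170% over 192% to 218% in sedentary mice, with no overlap. It was 1.42-fold lower (1.26 to 1.60, adjusted p = 0.00347; 0.0166 with slide as a block), while its receptor gene Csf1r differed by 0.09 as given above. Ccl7, a CCR2 ligand gene beside Ccl2 on the list and named after its values were seen, differed by -1.33 (-2.10 to -0.56, adjusted p = 0.0603) with no overlap between the groups. Il6, Il10, Cxcl2, Nos2 and Arg1 were well above background on 0 of 12 arrays.

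Markers of other cells in the muscle were read beside these values. Over all genes tested, 1.8% were called higher and 1.84% lower. Of 7 mast cell markers tested, Hdc, the histidine decarboxylase gene, was 3.01-fold higher (2.13 to 4.25, adjusted p = 0.00230; 0.0115 with slide as a block), at 34.4% to 93.4% in exercised and 14.4% to 25.2% in sedentary mice. The other 6 did not pass, and 1 of them was lower at an unadjusted p below 0.05, as were 9.82% of all genes. Of the 7, 4 lay above 0 and 3 below, with a median of 0.04. The summed level of the 7 was 311% to 496% in exercised and 292% to 491% in sedentary mice. Of 14 endothelial markers, Sox18 was 1.70-fold higher, and Egfl7 and Cldn5 were 1.49-fold and 1.82-fold lower (adjusted p = 0.0171, 0.0271 and 0.0271). In the fit that blocks on slide, all 3 missed the threshold, at 0.0580, 0.0748 and 0.0709. Their summed level was 5140% to 6685% against 5627% to 7514%. All 10 tendon cell markers were above 0 with a median of 0.83, 8 of them at an unadjusted p below 0.05 and 0 past the adjusted threshold in limma. Of all 16528 genes, 6959 lay above 0, and 6.4% were higher at an unadjusted p below 0.05. The tendon cell markers summed to 6416% to 16352% against 2817% to 8378%. The 10 fibro-adipogenic progenitor markers had a median of 0.04, the 9 adipocyte markers 0.36 and the 6 erythroid genes 0.31, and in limma 0 of these passed (unadjusted, 1, 0 and 0 were below 0.05). The 10 muscle fibre genes, which identify the labelled tissue, were all tested and 0 passed (1 at an unadjusted p below 0.05), with a median of -0.13. The part of these cells in the differences above was not tested.

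A training effect that differed between the sets named in the titles was found in 0 of the 30 genes and in 0% of all genes (limma interaction, adjusted p below 0.05). At an unadjusted p below 0.05 there were 3 of the 30, Itgam, Cd53 and Cd3e, against 8.74% of all genes.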

How the data were processed

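The authors deposited 1 scanner file per array, with spot intensity on a linear scale, made with Agilent Feature Extraction 10.5.1.1 per the file headers (9.1 per the submitters' processing notes), background-subtracted and not scaled between arrays. For 100% of probes with a single spot, the deposited value table lay within 0.1% of these intensities. Members and lists were chosen with earlier results of these data known. Here spots with outlier marks were dropped, spots of a probe averaged, log2 taken and the array's 75th percentile subtracted. Probes well above background on at least 6 of 12 arrays were kept, and the probe with the brightest mean stood for its gene. Exercised was compared with sedentary by lmFit and eBayes in limma 3.58.1 (R 4.3.3) without a block, adjusted by Benjamini-Hochberg over 16528 features, and the pipeline was tested on simulated data. Folds are differences of log2 means. Printed in full are genes called and the 4 with the smallest p in each direction, and of each other list the called genes or the one with the smallest p. Other genes named were chosen after their values were seen. Mice with the same set and animal number did not deviate together in all 4 cases (correlations 0.15, -0.19, 0.12 and 0.28), so numbers were not used as pairs. Slides were read from the array barcodes. Sequences are from the array files (mm9) and RefSeq (GRCm38.p6).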

Additional observations from a re-analysis of the deposited data

Results flagged for a closer look

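Each of the 30 genes was checked in each group of 6 mice for a value far from the other 5, which gave 60 checks. In these, 3 values stood apart, where chance gives about 1 in 20 if the checks are independent. Many of the genes were high or low together in one mouse, so the count cannot be judged by that rate. Mrc1, the mannose receptor gene, was low in sedentary s2m4 at 70.01% of the array's 75th percentile, with the other sedentary mice at 116% to 146%. Msr1, the scavenger receptor gene, was high in sedentary s1m1 at 8.725%, with the others at 2.93% to 4.23%. H2-Aa, the class II alpha chain gene, was high in sedentary s1m1 at 319.1%, with the others at 121% to 172%. All 3 come from the 2 sedentary mice that stood apart over the macrophage genes as a whole.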

How the results depend on the processing

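Of all genes, 601 passed in the reported analysis and 2 of the 30 genes described. All genes passing numbered 0 with normexp correction on the raw signals (107 at an unadjusted p below 0.05), 329 with normexp on negative control spots, 316 without the filter on dim probes, 348 with slide as a block, 1012 at an adjusted p below 0.10, and 0, 8 and 0 within slides 1, 2 and 3. They numbered 29 in the 8 arrays of shared numbers with the replicate block, 130 in the same arrays without it, 282 without both sedentary s1m1 and s2m4, and 419 to 572 with each mouse left out in turn. Of the 30, the count was 0 with either normexp, with slide as a block, within each slide and in the arrays of shared numbers with or without the replicate block. It was 1 without the filter (Cd247), with probes above background on 12 arrays (Ccr2, as Cd247 and Ptger4 then left the test), with the mean of a gene's probes (Ptger4) and without both sedentary mice (Ccr2), and 2 to 3 with each mouse left out. The replicate block gave log2 differences of -1.11 for Cd247 and -1.40 for Ptger4. Cd247 and Ptger4 stayed below 0 in 33 of 33 alternatives each, passed in 23 and lost the call in 10. The alternatives share arrays and are not independent. They include the reported fit itself, read at an adjusted p below 0.10, and 12 fits with 1 mouse left out. Ccr2 stayed below 0 in 34 of 34 and had an adjusted p below 0.05 in 7. The median of the 30 was 0.21 within slide 2 and -0.17 to -0.01 with each mouse left out. Signs turned for Msr1 under normexp on raw signals (-0.10) and on negative controls (-0.14), and for Spp1 within slide 1 (-0.15). Normexp on raw signals put the background mean between -1940 and -577 on 4 arrays, against -1.12 to 3.10 on the others, and the correction on negative controls, the 8 arrays without the block and the removal of both sedentary mice were added after seeing the data. Other causes were not tested. Signal near background limits Cd247, Ptger4, Msr1 and Itgam most. Within slides 1 and 2 the spread of the lone array was taken from the other group.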

Other observations

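Several neutrophil markers too dim to be tested were also highest on exercised s2m3, and 3 markers were not. Ltf, the lactoferrin gene, was at 164% there, against 1.30% to 2.47% in the other exercised and 0.946% to 3.29% in the sedentary mice. Ngp, the neutrophilic granule protein gene, was at 90.6% there and at 0.822% to 3.38% on the other 11 arrays. Elane, the neutrophil elastase gene, was highest in exercised s2m4 at 13.5%, with 6.45% on exercised s2m3. Csf3r, the granulocyte colony-stimulating factor receptor gene, was highest in exercised s2m5 at 16.7%, with 3.92%, not well above background, on exercised s2m3. Mmp9, which encodes a matrix metalloproteinase and was bright enough to be tested, was highest in sedentary s1m5 at 332%, against 13.4% to 26.6% in exercised mice. Mmp8, an enzyme of the same family, was at 14.7% in exercised s2m3 and at 0.730% to 1.31% elsewhere.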
